A study of Arabidopsis thaliana with 4 samples.

Results

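Splicing of an intron begins with the choice of its 5' splice site, the donor, and 738 alternative 5' site events whose donors lie 11 to 100 bp apart are described here. They were taken from 2137 alternative 5' site events and 14133 splicing events of all types in Arabidopsis thaliana. An event was kept when both of its introns had complete coordinates and their lengths in Col differed by 11 to 100 bp. No splicing level was used for this choice. RNA came from seedlings of Col (Columbia) and Ler (Landsberg erecta), natural strains (ecotypes) with different genome sequences, with 2 samples for each and 4 in all. All were 14 days old, with no treatment listed, and were grown on plates with 1% sucrose at 22 °C under 8 h of light and 16 h of dark. The source field gives the first leaf, while the extraction text speaks of shoots. Nothing says whether the 2 samples of an ecotype were planted apart.

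At the donor, the U1 small nuclear RNA pairs with the last bases of the exon and the first bases of the intron, which almost always begins with GT. When a pair of donors competes for the same acceptor, use of the downstream donor leaves the segment between them in the mRNA, and use of the upstream donor removes it. In coding sequence the segment adds or removes amino acids, shifts the reading frame or brings in a stop codon. A transcript with an early stop can be degraded by nonsense-mediated decay, and a segment before the start codon changes the leader that ribosomes scan. The inclusion level given below is the percentage for the form that keeps the segment. It is a single pooled value per ecotype in the authors' deposited table, so no level has an SD or an interval, the spread between samples is not shown and the read depth is unknown.

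The following stretches of the Col reference show what such a pair looks like. The first 2 bases of each of the competing introns are in capitals, with 6 bases on either side of the segment, read along the gene. AT1G31500 and IP5PI are shown because their use differed between the ecotypes, RCA because its levels were nearly equal, MENG because its segment brings in a stop codon, and PSAF because its junctions do not begin with GT.
AT1G31500, chr1:11274717-11274746, minus strand: gaaaagGTgatgagaaagcgaaagATaaat
RCA, chr2:16571174-16571196, minus strand: tctacgGTaaaacagagGTttga
IP5PI, chr1:12427240-12427263, plus strand: ctgacgGTaatgtgatatGTaact
MENG, chr1:8296236-8296259, minus strand: tatagaGTgagctcactgGTaaaa
PSAF, chr1:11215864-11215887, minus strand: ctctcaCTcaatccgtacCTaaat
In the first of these, the downstream intron begins with AT in Col, and this donor was listed at 0 in Col and used at 94.9% in Ler.

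The 738 events lay in 636 genes, of which 573 held 1 event and 25 held 3 or more. Some 105 of the events shared a donor with another of them and are not independent. The median distance between the donors was 27 bp, and 245 of the events had a distance of 11 to 20 bp. Distances of 12 bp (35 events), 13 bp (32) and 11 bp (30) were the most frequent. Segments in the coding span of the gene numbered 531, and 174 lay on the 5' UTR side, meaning before the start codon. A further 22 lay on the 3' UTR side and 10 crossed an end of the coding span.

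**Figure D1:**
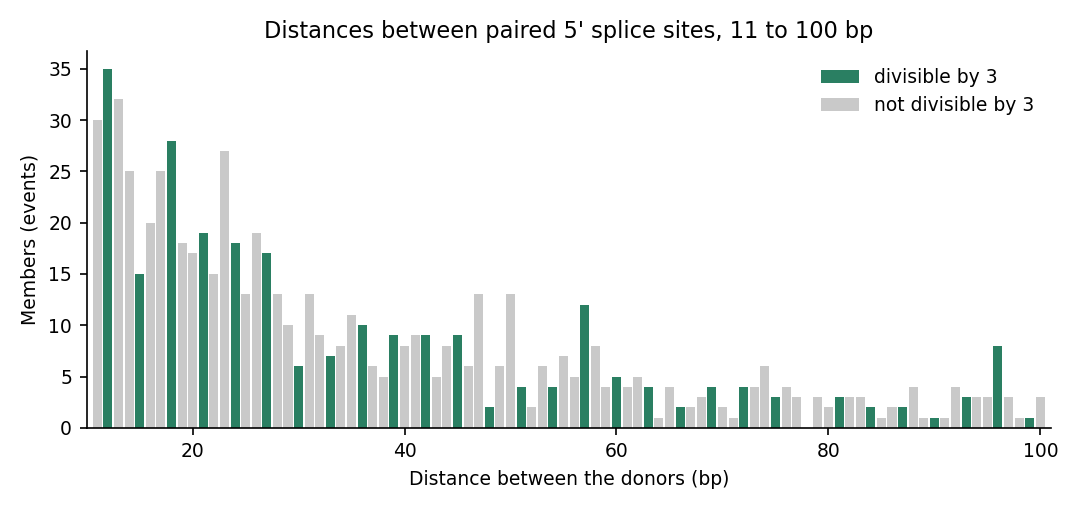
Number of events (y axis) at each distance between the donors in bp (x axis), with distances divisible by 3 in green. Distances of 11 to 13 bp are the most frequent, and green and grey bars alternate without a lasting excess of either.

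The distance was divisible by 3 in 246 events (33.3%, 95% Wilson interval 30.03 to 36.8%). This pooled share hides a split by annotation. Here and below a donor is called annotated when the intron from it to the acceptor of the pair is an annotated intron. A donor annotated only with another acceptor does not count. Where both donors are annotated and the segment lies in the coding span, 77 of 136 distances were divisible by 3 (56.6%, 48.2 to 64.7%). Where only the upstream donor is annotated the share was 23.9% (47 of 197, 18.4 to 30.3%), and where only the downstream donor is annotated it was 24.5% (40 of 163, 18.6 to 31.7%). On the 5' UTR side, where no frame is read, 41 of 125 distances with both donors annotated were divisible by 3 (32.8%, 25.2 to 41.4%). The intervals cover counting of events only, and no test of these shares was made.

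**Figure D2:**
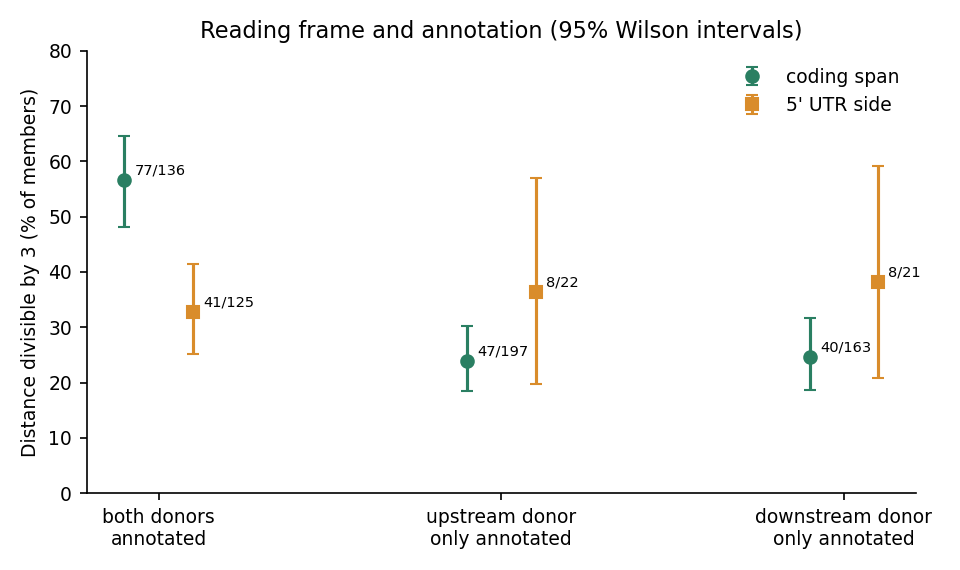
Percentage of events with a distance divisible by 3 (y axis), by which donors are annotated (x axis), for the coding span (circles) and the 5' UTR side (squares), with 95% Wilson intervals and counts. A donor counts as annotated when its intron to the shared acceptor is annotated. The coding span with both donors annotated stands at 56.6%, and the other coding classes at 23.9% and 24.5%.

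The segment could be read in the annotated frame for 487 of the 531 events in the coding span. A stop codon fell within it in 140 of the 487 (28.7%). Among the 196 of these events with only the upstream donor annotated, 108 segments held a stop codon (55.1%). Where both donors are annotated, 31 of 133 did (23.3%), and where only the downstream donor is annotated, 1 of 158. The low count in the last class is built in, since there the segment belongs to the annotated coding sequence. With only the upstream donor annotated, the segment is part of an annotated intron, so that class also differs by construction. With both donors annotated, segments with a stop codon had a median level of 28.6% in Col and 8.74% in Ler, against 45.2% and 41.1% for the segments without one. The segments with a stop were also longer, with a median of 43 bp against 21 bp. The gap between the Col and Ler medians is not a difference within events. Of the 31 segments with a stop codon and both donors annotated, 6 were signed, 5 higher in Col and 1 in Ler. Over all 140 segments with a stop codon, which mix the annotation classes, the medians were 7.57% in Col and 7.73% in Ler.

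The levels split along the annotation. The direction of this split is built in, since these classes were used to tell which form the level refers to. Where only the upstream donor is annotated (220 events), the median level was 5.21% in Col and 5.81% in Ler. Where only the downstream donor is annotated (194 events) it was 96.6% and 96.2%. The 280 events with both donors annotated had medians of 37.4% and 31.3%, and 132 of them were between 10% and 90% in both ecotypes. Of the 44 events with neither annotated, the medians were 37.5% and 37.4%. Across all 738 events the medians were 37.4% in Col and 34.0% in Ler, beside 47.2% and 43.5% for all alternative 5' site events. Donors up to 10 bp apart had medians of 62.9% and 61.98%, and donors over 100 bp apart 50% and 44.4%. One form dominated in most of the 738: 230 were under 10% and 190 over 90% in Col, and 246 and 186 in Ler.

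Donor strength was scored from the 3 exon and 6 intron bases around each site, as the summed log2 odds of the base frequencies at donors of 135734 annotated introns over a fixed base background. In 716 of the 738 events all junctions had GT or GC at the donor and AG at the acceptor. The median score of their upstream donors was 5.92 and that of the downstream donors 5.14, and the downstream donor scored higher in 275 events (38.4%). For the 67 events whose downstream donor scored lower by more than 4 log2 units, the segment was kept at a median of 5.75% (Col) and 5.37% (Ler). Among the 25 events whose downstream donor scored higher by more than 4 units the median was 91.2% and 90.6%. In between, the medians in Col rose bin by bin from 17.4% to 39.3%, 51.5% and 77.2%. Spearman's rho between the score difference and the level was 0.343 in Col and 0.321 in Ler across the 716 events, which share libraries and in part donors. It was 0.348 and 0.360 over the 280 events with both donors annotated. The same rho in Col was 0.558 for 522 events with donors up to 10 bp apart and 0.129 for 836 events with donors over 100 bp apart.

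**Figure D3:**
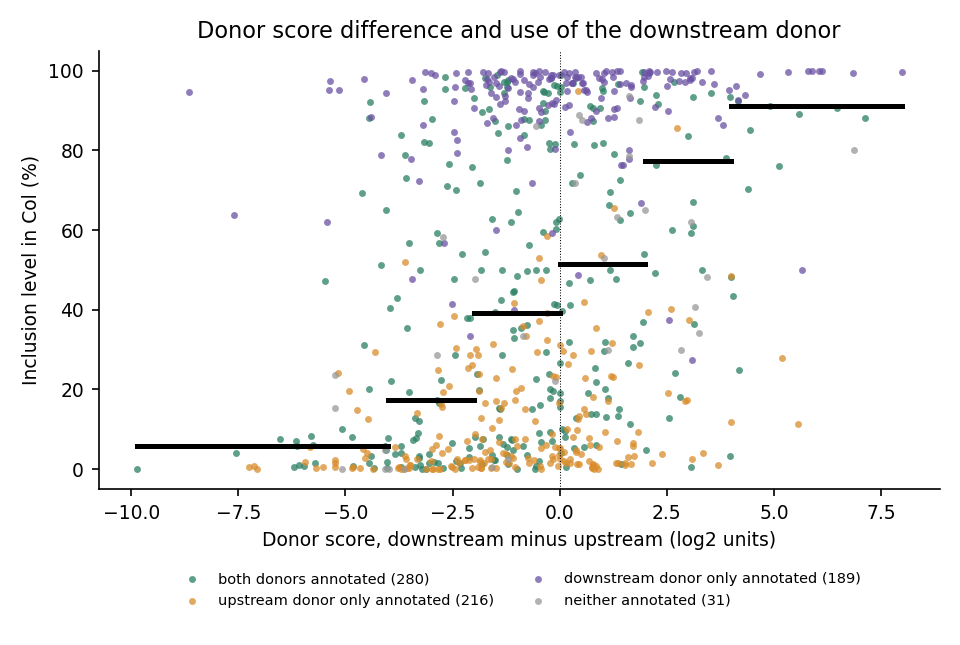
Inclusion level in Col in percent (y axis) against the donor score of the downstream site minus that of the upstream site in log2 units (x axis) for 716 events, coloured by annotation, with black bars at the median of each bin. The bin medians go from 5.75% at the left to 91.2% at the right, while single events scatter over the whole range.

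A GC donor, the common variant of GT, stood at the upstream site of 29 events against a downstream GT, and the segment was kept at a median of 78.6% in Col and 80% in Ler. In 14 events the downstream donor was GC against an upstream GT. Their median level was 89.3% in Col and 86.6% in Ler, so that these downstream GC donors were the more used in the median event. The range in Col ran from 1.85% to 99.3%. With GT at both donors (673 events) the medians were 35.0% and 30.4%.

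The ecotypes were compared through the direction signs in the authors' deposited table, where an event carries one sign for Col, another for Ler, or none. All signed events differed by more than 10 percentage points, and q was below 0.05 for each. Of the 738 events 47 were signed (6.37%, Wilson interval 4.82 to 8.37%), beside 7.46% of all events and 6.32% of all alternative 5' site events. They lay in 43 genes. The level was higher in Col in 28 events, beside a background of 4.08% in that direction, and higher in Ler in 19, beside 3.38%. Without a minimum difference, 109 events had q under 0.05 in the authors' deposited table, beside 14.3% of all events. The share of signed events is thus close to the background. It was 5.24% for donors up to 10 bp apart (28 of 534) and 6.86% for donors over 100 bp apart (58 of 846).

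The median absolute difference over the 738 events was 2.50 points, and 66.7% of them differed by at most 5 points. Unsigned events were higher in Col in 371 cases and in Ler in 320. The 47 signed events had a median difference of 22.7 points, from 10.1 to 94.9. Of these, 30 of them reached 20 points, beside 4.20% of all events, and 6 exceeded 50 points, beside 1.07%. Of the signed events higher in Col, 24 of 28 lay in the coding span and 4 on the 5' UTR side. Of those higher in Ler, 10 of 19 lay in the coding span and 8 on the 5' UTR side. An interval of another length in Ler was listed for 111 of the 738 events, and 19 of these were signed. Of the 627 events with equal lengths 28 were signed (4.47%). The part of these length differences in the signs was not tested.

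**Figure D4:**
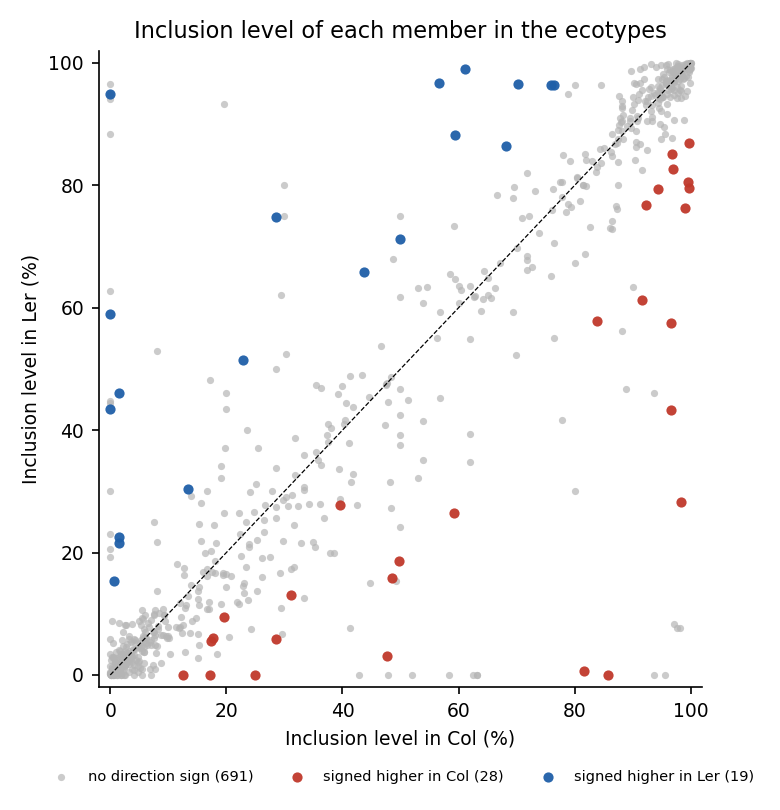
Inclusion level in Ler against that in Col in percent for all 738 events, 1 point per event, with signed events in red (28 higher in Col) and blue (19 higher in Ler) and the line of equal levels. Most points lie near the line and crowd at its ends, and some unsigned points lie as far from it as signed ones.

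The largest signed difference higher in Col was in ADF1, an actin-depolymerizing factor that severs actin filaments. Its 23 bp segment in the coding span (chr3:16910620-16910642) was kept at 85.7% in Col, and in Ler its level was listed at 0. Both donors of this pair scored low, at -1.37 and 1.36. Retention of its longer and shorter introns was listed at 94.4% and 76.5% in Col, and at 13.2% and 91.7% in Ler. By those levels both spliced forms were the minority in Col. The pair shares a donor with another event of ADF1. The other events of ADF1 were unsigned, at 0.676% in Col and a listed 0 in Ler, and at 0.0756% and 2.38%. In bHLH121, a transcription factor of the iron deficiency response, a 79 bp segment with a stop codon (chr3:6903990-6904068) was kept at 81.6% in Col and 0.649% in Ler. Its donors scored almost alike, at 6.50 upstream and 6.83 downstream. The retention event listed for the longer intron of bHLH121 stood at 85% and 1.29%. Whether use of the downstream donor takes part in that retention level was not tested. Intervals of both genes had another length in Ler. The donors of bHLH121, with 10 exon and 10 intron bases each, read as follows.
bHLH121 upstream donor, chr3:6903980-6903999, plus strand: cttcccgccgGTgaatctct
bHLH121 downstream donor, chr3:6904059-6904078, plus strand: tcacaatctgGTacttctct

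Of the 10 largest differences higher in Col, AT3G57060, OSB4, MENG and AT1G67700 lay in the coding span with equal interval lengths in the ecotypes. AT3G57060, annotated as a binding protein, kept a 42 bp segment without a stop codon at 96.7% in Col and 43.3% in Ler (chr3:21115261-21115302). OSB4, an organellar single-stranded DNA-binding protein, kept 18 bp at 96.7% and 57.6% (chr1:11055803-11055820). In both genes the reading frame is the same with and without the segment. MENG encodes a methyltransferase in the synthesis of phylloquinone, the quinone cofactor of photosystem I. Its 12 bp segment (chr1:8296242-8296253), printed above, holds a stop codon and was kept at 48.5% in Col and 15.9% in Ler. AT1G67700, annotated as a multidrug resistance protein, kept a 14 bp segment with a stop codon at 49.8% and 18.5%. In the authors' deposited table its q was 4.25e-174, the smallest among the 10 named in this direction. AAE14, an acyl-activating enzyme, is not among the 10 and is named as an event at the lower distance limit. It was also signed, with 11 bp kept at 92.4% in Col and 76.9% in Ler.

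The remaining members of the 10 largest differences higher in Col were AT5G38050, AT3G57470, AT4G10925 and VDAC5. AT3G57470, an insulinase-type peptidase, kept a 92 bp segment with a stop codon at 47.6% in Col and 3.12% in Ler, and the distance between its donors was 82 bp in Ler. VDAC5, a voltage-dependent anion channel, kept 46 bp at 91.7% and 61.3%, with intervals of another length in Ler. Its q in the authors' deposited table was 0.0469, close to 0.05. AT4G10925, of the NTF2 family, kept 28 bp on the 5' UTR side at 59.3% and 26.5%. Across these 10 events, 9 lay in the coding span, and the downstream donor scored higher in 6.

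Among the differences higher in Ler, AT1G31500, a DNAse I-like protein, went from a level listed at 0 in Col to 94.9% in Ler (18 bp, chr1:11274723-11274740). Its q was 2.87e-77 in the authors' deposited table, and its intervals have equal lengths in the ecotypes. RHB1A, a RING-H2 finger protein, kept 26 bp on the 5' UTR side at 59% in Ler, against a level listed at 0 in Col, with a distance of 25 bp in Ler. IP5PI, an inositol polyphosphate 5-phosphatase, kept 12 bp of coding sequence without a stop codon at 1.45% in Col and 46.1% in Ler (chr1:12427246-12427257). Its upstream donor scored 6.07 and its downstream donor 3.76. SOS4, a pyridoxal kinase required for salt tolerance, kept a 33 bp segment with a stop codon at 28.6% and 74.9% (chr5:15065480-15065512). A further signed pair of SOS4, 16 bp apart, moved the other way, at 12.5% in Col, with the Ler level listed at 0.

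On the 5' UTR side, PIF3, a phytochrome-interacting transcription factor of light signalling, kept a 60 bp segment of its leader at 61.1% in Col and 98.99% in Ler (chr1:3076749-3076808). Its intervals had equal lengths in the ecotypes, and its downstream donor scored higher, at 8.09 against 4.98.
PIF3 upstream donor, chr1:3076739-3076758, plus strand: atactttgagGTtctcactc
PIF3 downstream donor, chr1:3076799-3076818, plus strand: tttttctcagGTcagctacg
PSF1, a subunit of the GINS complex of DNA replication, kept 87 bp at 56.7% in Col and 96.7% in Ler. AT1G80245, annotated as a spindle pole body component, kept 60 bp at 59.4% and 88.2%, and NST-K1, a nucleotide sugar transporter, 22 bp at 70.3% and 96.5%. In the coding span, AT5G63080, a 2-oxoglutarate-dependent oxygenase, kept a 13 bp segment with a stop codon at 22.8% and 51.5%. Its q in the authors' deposited table was 0.0389, and that of AT1G80245 was 0.0486, the largest of all signed events. SYP41, a syntaxin of the trans-Golgi network, kept 19 bp with a stop codon at 43.5% in Ler and was listed at 0 in Col. Of these 10 events higher in Ler, 5 lay in the coding span and 5 on the 5' UTR side, and 7 had an interval of another length in Ler.

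**Figure D5:**
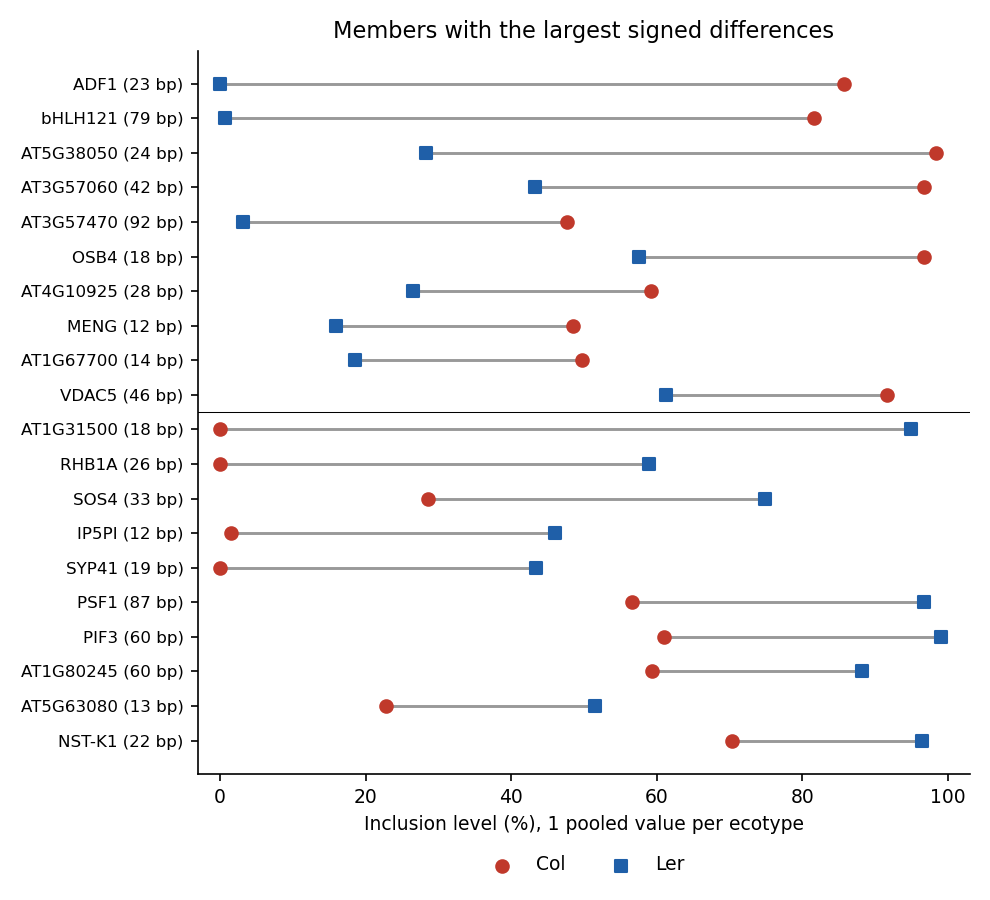
Inclusion level in percent (x axis) in Col (red circles) and Ler (blue squares), 1 pooled value each, for the 10 largest signed differences higher in Col (top) and higher in Ler (bottom), 1 event per gene within a direction, with the distance between donors in brackets. ADF1, AT1G31500, RHB1A and SYP41 are listed at 0 in one ecotype, while most of the others use both donors in at least one.

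Donors that are neither GT nor GC in the Col reference occurred at 9 events with an AG acceptor, in 8 genes, a class singled out after its values were seen. In 7 of the 9 the unusual donor was less used in Col than in Ler. These 7 lie in 6 genes, since the middle donor of TET10 counts in both of its events. The class is defined by the Col bases alone, and donors unusual only in Ler could not enter it. Its direction therefore does not compare the ecotypes. In these 7 events the use of the unusual donor was at most 6.25% in Col and ran from 43.5% to 100% in Ler. The values of 100% come from segment levels listed at 0 in Ler, and some of the Col values are themselves listed at 0. A listed 0 can be a failed estimate. Besides AT1G31500, SYP41 and AT5G38050, an RNA polymerase II transcription elongation factor, they were TET10, AT5G22820 and AT5G23800. TET10, a tetraspanin membrane protein, has 3 donors in a row, and the middle one begins with AT in Col.
TET10 first donor, chr1:23467239-23467258, minus strand: cttcaatgtgGTcctgtttg
TET10 middle donor, chr1:23467221-23467240, minus strand: tgttgtcttgATaagctctc
TET10 last donor, chr1:23467163-23467182, minus strand: cttttaaacgGTttagtgca
Against the first donor, use of the middle one was 95% in Ler and listed at 0 in Col. Against the middle donor, the last one was used at 93.8% in Col, with a level listed at 0 for Ler. Neither TET10 event carries a sign, although the authors' deposited table lists them with q of 1.88e-07 and 4.44e-14.

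AT5G22820, an ARM repeat protein, has a GG at its upstream donor in Col. That donor was used at 4.35% in Col and, with the segment listed at 0, at 100% in Ler. AT5G38050 has AT at its upstream donor, which was used at 1.59% in Col and 71.7% in Ler. Its donors are 24 bp apart in Col and 33 bp apart in Ler, so that the Ler value refers to a pair of another spacing.
AT5G22820 upstream donor, chr5:7623895-7623914, minus strand: gatatatcaaGGaagctatt
AT5G38050 upstream donor, chr5:15188094-15188113, plus strand: agtaacaaagATtgttcctc
SYP41 downstream donor, chr5:9489726-9489745, minus strand: tattatctatTTtagtgtaa
The 2 exceptions were GAMMA-ADAPTIN 1, a clathrin adaptor subunit, whose upstream TC donor was used at 11.6% in Ler and, from a segment level listed at 0, at 100% in Col, and AT1G69020, a prolyl oligopeptidase, whose downstream GA donor was used at 77.8% and 41.7%. Neither was signed, and the authors' deposited table gives q of 1 and 0.112. GAMMA-ADAPTIN 1, AT5G23800, SYP41 and AT5G38050 had an interval of another length in Ler. The Ler bases at these donors were not analysed here.

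Another 11 events, in 9 genes, had CT at both donors and AC at the acceptor. Read on the opposite strand, such junctions begin with GT and end with AG, share a donor and differ at the acceptor. Of the 11, a class chosen after values were seen, 3 were signed (27.3%, Wilson interval 9.75 to 56.6%), beside 7.46% of all events. All 3 were higher in Ler, beside 3.38%: PSAF, a photosystem I subunit (68.2% in Col and 86.5% in Ler), and a pair of events of AT1G69570, a Dof-type zinc finger protein (76.0% and 96.4%, and 43.7% and 65.9%). Retention of the PSAF introns was listed at 99.8% and 99.5% in Col, and at 99.9% and 99.1% in Ler, so both spliced forms were minor by those levels. The interval counts the pair of AT1G69570 events as separate, although they come from a single gene. The event at 43.7% and 65.9% shares a donor with another event of that gene. The strand of the transcripts with such junctions was not tested.

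Large unsigned differences were also present. No sign was given to 14 of the 738 events with q below 0.05 and more than 10 points of difference in the authors' deposited table, beside 0.955% of all events. They included HTA8, a histone H2A.Z (59 bp, 96.6% in Ler against a level listed at 0 in Col), TRM21 (22 bp, 98.2% and 7.69%), AT1G60700 (44 bp, 97.6% and 7.69%) and GOX2, a glycolate oxidase of photorespiration (36 bp, 93.8% and 46.2%). These genes were chosen after their values were seen. Why they carry no sign was not tested.

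Some genes used both donors at 30 to 70% with nearly equal levels in the ecotypes. RCA encodes Rubisco activase, the chaperone that frees Rubisco of inhibitory sugar phosphates, and its long and short isoforms arise from an alternative splice. The 11 bp segment printed above (chr2:16571180-16571190) was kept at 47.5% in Col and 47.5% in Ler. The downstream donor of RCA scored 7.001 and the upstream donor 6.30. AT4G38930, a UFD1 family protein of ubiquitin-dependent degradation, kept 12 bp at 47.6% and 47.7%. PIN4, an auxin efflux carrier, kept 12 bp at 48.3% and 48.7%, and the glycine-rich protein GRP-3 kept 39 bp at 67.2% and 67.4%. Retention of the GRP-3 introns was listed at 99.3% and 98.5% in Col, and at 99.1% and 98.04% in Ler. By those levels both spliced forms of GRP-3 were minor. AT1G17520, a homeodomain-like protein, kept 18 bp at 65% and 64.8%, and AT5G05670, a signal recognition particle binding protein, kept 44 bp on the 5' UTR side at 31.9% and 32.6%. Each of these had both donors annotated, and 4 of the 6 distances were 12, 18 or 39 bp, which are divisible by 3.

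Grouped by words in their product names, 57 events in 47 genes fell to kinases and phosphatases, and 3 were signed (5.26%), 1 higher in Col and 2 in Ler. This share and those of the other groups stand beside 7.46% of all events and 6.37% of the 738. The largest difference there, in the protein kinase AT5G50330 (68 bp, 97.1% in Col and 8.33% in Ler), carries no sign. A pair of SOS4 donors 24 bp apart, with neither intron annotated, stood at 47.8% in Col and at a listed 0 in Ler (q of 0.212 in the authors' deposited table). Of 44 events of ubiquitin and proteolysis genes 4 were signed (9.09%, Wilson interval 3.59 to 21.2%), 2 in each direction, and the interval covers the 7.46% of all events. UEV1D-4, a ubiquitin E2 variant, was unsigned at 50% and 75%.

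Transport and membrane traffic held 24 events, of which 3 were signed (12.5%, 4.34 to 31.004%). TMT2, a sugar transporter of the vacuolar membrane, was unsigned, with 44 bp on the 5' UTR side at 30% in Ler against a listed 0 in Col. Of 20 events of transcription factors 3 were signed (15%, 5.24 to 36.04%), with the 7.46% of all events inside both intervals. The 1 higher in Col was bHLH121. The 2 higher in Ler were the AT1G69570 pair with CT at both donors, from a single gene. PIF3 fell outside the keywords of this group. SIZ1, a SUMO ligase that the zinc finger keyword also placed there, was unsigned at 76.5% and 55%. Retention of its introns was listed at 98.1% and 94.1% in Col, and at 97.2% and 96.4% in Ler. Of 13 events of photosynthesis and chloroplast genes 2 were signed: PSAF and AT3G26080, a fibrillin of plastid lipid bodies (75 bp, 99.6% and 79.5%). The median level of that group was 97.6% in Col and 94.4% in Ler, and its median difference was 0.700 points. AT5G14260, a Rubisco methyltransferase family protein, was at 98.3% and 95.5%, unsigned.

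Of 13 events in the ribosome and translation group 2 were signed, both higher in Col. They were AT4G00810, an acidic ribosomal protein (86 bp on the 5' UTR side, 31.1% and 13.1%), and AT5G38050, whose product name concerns transcription rather than translation. AT3G10250, annotated as a histidine-tRNA ligase, was unsigned at 53.9% and 35.2%. Of 10 events of splicing and RNA-binding proteins 1 was signed, in LARP6b, a La-related RNA-binding protein (20 bp, 76.4% and 96.4%). PRP40C, a pre-mRNA processing protein, was unsigned at 53.8% and 41.5%, as was AT2G43465, an ASCH domain protein, at 16.7% and 30%. The one event of an immune receptor, LAZ5, stood at 71.0% and 74.6% without a sign. None of these groups was tested against the others.

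GRP7 and FSD1 held the most events, 6 each, and none was signed. In GRP7, a clock-controlled glycine-rich RNA-binding protein, neither intron of any of the 6 pairs is annotated. A 22 bp pair stood at 0.0392% in Col and at a listed 0 in Ler. For a 24 bp pair the levels were 65% and 62.1%. The largest difference in GRP7 was 61.9% against 34.8%, at 36 bp. Retention of the introns of this 36 bp pair was listed at 99.99% and 99.97% in Col, and at 99.90% and 99.93% in Ler. For the 24 bp pair it was 99.99% and 99.98% in Col, and 99.97% and 99.94% in Ler. By those levels the spliced forms of these pairs were a very small part of GRP7 transcripts. In FSD1, an iron superoxide dismutase, all 6 segments lie on the 5' UTR side. A 55 bp pair stood at 94.9% in Col and 95.1% in Ler. Of the pairs 51 bp apart, one stood at 0.165% and 0.1802%. The other had the largest difference in FSD1, at 52% in Col against a listed 0 in Ler (q of 0.0632 in the authors' deposited table). A 26 bp pair of FSD1 stood at 30% and 80% (q of 0.119 in the authors' deposited table).

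At the limits of the distance, AT1G05030, a sugar transporter family protein, had donors 11 bp apart and levels of 23.5% in Col and 25% in Ler. Just outside, RDH2 at 10 bp stood at 96.9% and 99.6%, and AT1G53250 at 58.6% and 41.5%. At 100 bp, AT3G27470 stood at 8% and 52.9% and AT4G27610 at 8.06% and 21.7%. Just above 100 bp, BRCC36B stood at 2.17% and 4.10% and TH9, a thioredoxin, at 27.0% and 8.57%.

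Of the 738 events, 641 lay in genes with another gene within 500 bp. The 97 events away from other genes included 3 signed ones. A level listed at 0 in Col alone was found for 19 events and in Ler alone for 27. Since a 0 can be a failed estimate, no fold was computed against it.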

How the data were processed

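Polyadenylated RNA was sequenced in 2 Col and 2 Ler samples. Per the submitters' processing notes, TopHat was used with the TAIR10 build; no version is named there. The inclusion level is a fraction from 0 to 1, deposited by the authors as 1 pooled value per ecotype, per the file headers. A text cell holds a sign and the q value of the authors' comparison. Not given in the sources used here: how the levels, q values and signs were computed and which read minimum applied. Read depth is therefore unknown.

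Fractions were converted to percent. The listed intervals give the exon bases that flank each intron: read so, 2566 of 3803 introns (67.5%) of alternative 5' site events equalled an annotated intron of the RefSeq copy of TAIR10 (TAIR10.1, same nuclear sequence), and 0 when read as the intron itself or shifted by 1 bp. Sequences, gene names and frames come from that RefSeq copy. The annotation classes showed which form has the level. Donor scores sum log2 odds (pseudocount 1) against a background of 32% for A and T and 18% for C and G. The geometry and stop-codon reading were checked on simulated data. Named events followed a rule: the 10 largest signed differences per direction, 6 events of mixed use (30 to 70% in both, both donors annotated, no sign) with the smallest differences, up to 3 per keyword group, the 2 genes with most events and events at the distance limits. The donor score bins, annotation classes and sets of events with unusual junction ends were chosen after values were seen. The members, groups and lists were chosen with earlier results of these data known. The planned count test over samples did not apply to pooled fractions, so no test was made. Python 3.11.15, pandas 2.3.3, NumPy 2.4.6 and SciPy 1.17.1 were used.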

Additional observations from a re-analysis of the deposited data

How the results depend on the processing

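Of 54 values recomputed under 11 alternatives, 45 stayed within 1.5 times the count or within the 95% interval of the main value. The count of 47 signed events became 28 without intervals of another length in Ler, 3 of 97 events away from other genes, 31 of 564 at distances of 15 to 80 bp, 109 with q under 0.05 alone and 30 with a difference of at least 20 points. The share of signed events went from 6.37% to 4.47% without other lengths and 3.09% away from other genes; the cause was not tested. Away from other genes the median level was 50% in Col and 52.9% in Ler, the median absolute difference 3.12 points and the share of distances divisible by 3 29.9%; the cause was not tested. The share of signed events higher in Col, 59.6% (45.3 to 72.4%), ranged from 50% with at least 20 points and 50.5% with q alone to 66.7% away from other genes, within that interval. The alternatives without junction ends other than GT or GC with AG, and without events that share a donor, were chosen after seeing the data. No paired analysis was possible because the table holds 1 pooled value per ecotype. For the same reason no sample could be left out.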
